A study of Homo sapiens with 2 samples.

Results

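The solute carriers are membrane proteins that move amino acids, sugars, metal ions, inorganic ions, vitamins and nucleotide sugars across the plasma membrane and the membranes of organelles. Members were the rows of the deposited expression table whose symbol is SLC, a number, the letter A and a number, without the mitochondrial SLC25A family. This gave 122 of 13075 genes, from 41 numbered subfamilies, and all 122 are annotated as protein coding. The letter rule leaves out carriers such as SLC35B1 and the SLCO genes.

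RNA came from HEK293, an established human embryonic kidney cell line at passage 15, transfected with TOP3B carrying a FLAG tag and the R338W substitution. TOP3B is a topoisomerase of DNA as well as RNA, and the comparison asks which RNAs its cleavage complexes hold. The input group was lysate of the transfected cells with no antibody step, and the RIP (RNA immunoprecipitation) group was the RNA that came down with a monoclonal antibody to FLAG. Each group had 1 library, so no difference below has a replicate check, and no RIP from untransfected cells is analysed here.

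Carriers work by alternating access, in which the binding site faces first one side of the membrane and then the other. Uniporters follow the gradient of their substrate, and symporters and antiporters couple it to sodium, protons or another solute. Their mRNAs are translated at the endoplasmic reticulum, where the many membrane-spanning segments are inserted. Some carriers are made in most cells, and others are known chiefly from kidney tubule, neurons or liver.

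The library of the RIP held about 24900000 fragments and that of the input about 15300000, as estimated from the whole-fragment steps of the values. The table names no unit, and its values were taken as FPKM, fragments scaled by transcript length and library depth. The transcript of the bait TOP3B stood at 30666 FPKM in the RIP against 15062 in the input, which pools the transfected and the chromosomal copy. Of 21 carriers typical of kidney tubule only SLC47A1 and SLC4A4 were in the table, of 14 typical of neurons and glia only SLC1A3 and SLC12A5, of 5 typical of liver only SLC27A5, and of 4 typical of blood cells none. SLC47A1, a multidrug extruder, stood at 7.57 FPKM in the RIP against 7.68 in the input, and SLC4A4, a sodium bicarbonate cotransporter, at 4.0 and 3.44. SLC12A5, the neuronal potassium chloride cotransporter, stood at 3.52 and 4.54, and SLC27A5, a bile acid and fatty acid ligase of liver, at 8.26 and 8.38. The filter on low genes behind the table is not given, so a missing gene cannot be read as not expressed.

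Most carriers lay within 1.5-fold of the input, and so did most coding genes. Ratios are log2((RIP + 1)/(input + 1)), where the added 1 FPKM is a pseudocount. Genes that reached 5 FPKM in either library were counted, which kept 107 carriers and 11990 genes. Of the 107 carriers, 1 was at least 2-fold higher in the RIP, against 4.9% of all genes, and 0 were at least 2-fold lower, against 2.5% of all genes. Of coding genes, 3.65% were at least 2-fold higher and only 0.533% lower. At a 1.5-fold limit 13 carriers (12.2%) were higher, against 19.9% of all genes, and 10 (9.35%) were lower, against 10.2%. The shares of coding genes were 19.2% higher and 7.01% lower, so on the lower side the carriers' share was above that of coding genes. The remaining 84 carriers (78.5%) lay within 1.5-fold, as did 69.9% of all genes and 73.8% of coding genes.

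The median ratio of the carriers was -0.02, with quartiles of -0.33 and 0.23. That of all genes was 0.13 and that of the other coding genes 0.15. Ratios were above 0 for 51 carriers and below 0 for 56, and 38 of 107 (35.5%) exceeded the median gene. Of all 11990 genes, 7040 lay above 0 and 4941 below, so counts above 0 are to be read against that balance. The balance of calls depends on the scaling. With ratios centred on the median gene 1 carrier was higher and 2 were lower, and of all genes 365 were higher and 450 lower, where the deposited scale gave 588 and 300. Levels of the carriers ran from 3.51 FPKM (SLC48A1) to 136.5 (SLC38A2) in the RIP, with a median of 10.9, and from 2.96 (SLC6A13) to 120.3 (SLC38A2) in the input, with a median of 11.2.

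**Figure D1:**
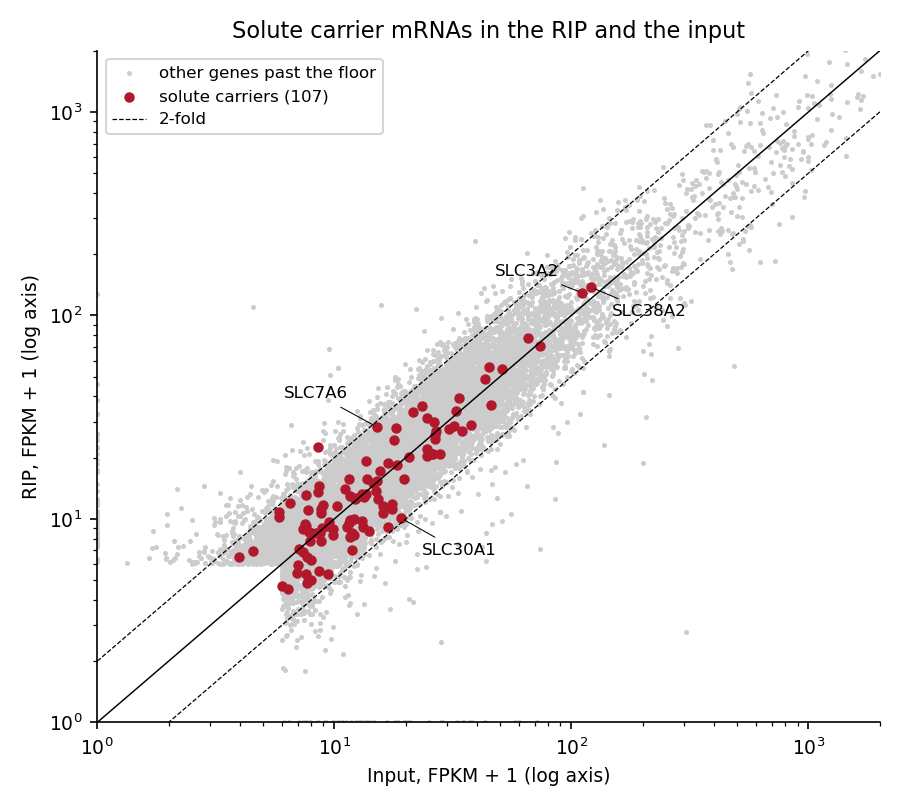
Level of each gene in the RIP (vertical, FPKM + 1, log axis) against the input (horizontal, FPKM + 1, log axis), with 107 solute carriers in red, other genes past the floor of 5 FPKM in grey, and dashed lines at 2-fold; both axes end at 2000, and genes beyond are not drawn. The carriers follow the line of equal values, and SLC7A6 and SLC30A1 lie near the upper and lower 2-fold lines.

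Among the carriers reported by name, SLC7A6 and SLC26A6 came nearest to the 2-fold limit on the higher side. SLC26A6 is an exchanger of chloride, bicarbonate and oxalate. SLC26A6 (ENSG00000225697.10, GRCh38 chromosome 3, 48625723 to 48635493, minus strand) was at 11.03 FPKM in the RIP against 5.48 in the input. Its log2 ratio was 0.89. Without the pseudocount its linear ratio was 2.01, with a 95% interval of 1.72 to 2.37 from an exact binomial (Clopper-Pearson) calculation on about 665 and 203 estimated fragments. Such intervals cover counting error only and rest on the length of a representative transcript.

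SLC30A1 had the lowest ratio of the carriers past the floor. It is the zinc exporter of the plasma membrane, induced by the metal-sensing factor MTF1 when zinc rises. SLC30A1 (ENSG00000170385.9, GRCh38 chromosome 1, 211571568 to 211578742, minus strand) was at 9.11 FPKM in the RIP against 18.1 in the input. Its log2 ratio was -0.92 and its linear ratio 0.503, with a counting interval of 0.466 to 0.543. MTF1 itself stood at 9.50 and 7.17 FPKM. Centred on the median gene SLC30A1 passed the 2-fold limit at -1.05, and SLC39A8 passed it at -1.01.

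These genes also differ in structure, and their coding exon junctions are shown because exon number is the annotated feature that had the highest rank correlation with the ratio, as given further on. The representative transcript of SLC30A1 has 2 exons and 1 coding junction with at least 20 coding bases on either side, whereas that of SLC26A6 has 21 exons and 19 such junctions. Other carriers with like ratios differ less in exon number, as SLC7A6 (0.89) has 12 exons and SLC39A8 (-0.88) has 8. Each sequence gives 20 bases on either side of a junction, 5′ to 3′ along the mRNA, from GENCODE release 29, with the 4 bases on either side in capitals. The SLC30A1 junction joins chromosome 1 positions 211577991 and 211576289, and those of SLC26A6 join chromosome 3 positions 48635371 and 48633635, 48630607 and 48630515, and 48626631 and 48626354, all on the minus strand of GRCh38.
SLC30A1 exons 1 and 2: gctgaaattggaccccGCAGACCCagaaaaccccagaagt
SLC26A6 exons 1 and 2: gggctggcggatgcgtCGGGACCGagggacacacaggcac
SLC26A6 exons 10 and 11: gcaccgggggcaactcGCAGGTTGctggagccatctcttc
SLC26A6 exons 19 and 20: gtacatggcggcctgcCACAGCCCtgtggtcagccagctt

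SLC7A6, a light chain that exchanges cationic for neutral amino acids, stood at 27.3 FPKM in the RIP against 14.2 in the input (ratio 0.89). It overlaps SLC7A6OS on the opposite strand by 17321 bases, and that gene stood at 15.8 and 11.2 FPKM. The library kit keeps strand, but whether the counting used it is not given. Of the carriers past the floor, 36 overlap another measured gene on either strand. SLC22A15, a carrier of zwitterions, stood at 9.77 and 4.85 FPKM (0.88). Without the pseudocount its linear ratio was 2.01, so like SLC26A6 it passed the 2-fold limit on that scale only.

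SLC10A7, needed for calcium handling and glycosylation in the secretory pathway, stood at 12.1 FPKM in the RIP against 6.60 in the input (0.78). SLC26A11, a sulfate and chloride carrier, stood at 13.5 and 7.64 FPKM (0.75). SLC6A13, a GABA and taurine carrier, stood at 5.53 and 2.96 FPKM (0.72), on about 278 and 91 fragments, and its linear ratio of 1.87 had a counting interval of 1.47 to 2.39. It had the fewest estimated fragments of the carriers past the floor. SLC39A13, SLC2A3, SLC36A1, SLC4A7 and SLC38A10 also passed the 1.5-fold limit, with ratios from 0.62 to 0.68.

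The 10 carriers at least 1.5-fold lower were led, after SLC30A1, by another zinc carrier. SLC39A8, an importer of zinc and manganese, stood at 8.17 FPKM in the RIP against 15.9 in the input (-0.88). SLC26A2, the sulfate carrier that cartilage depends on, stood at 4.34 and 8.38 FPKM (-0.81). SLC30A6, which works with SLC30A5 to load zinc into the secretory pathway, stood at 7.77 and 13.1 FPKM (-0.68). SLC33A1, which brings acetyl-CoA into the endoplasmic reticulum, stood at 10.2 and 16.5 FPKM (-0.64).

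SLC7A11, the cystine glutamate antiporter that feeds glutathione synthesis, stood at 9.65 FPKM in the RIP against 15.0 in the input (-0.59), just past the 1.5-fold limit. SLC5A3, a sodium myo-inositol cotransporter, stood at 4.02 and 6.95 FPKM (-0.66). Its gene lies within MRPS6 on the same strand, and MRPS6 stood at 17.9 and 27.0 (-0.56), so fragments of these genes may be shared. The remaining members of this set were SLC35A5, SLC2A12 and SLC16A4, with ratios from -0.75 to -0.64.

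**Figure D2:**
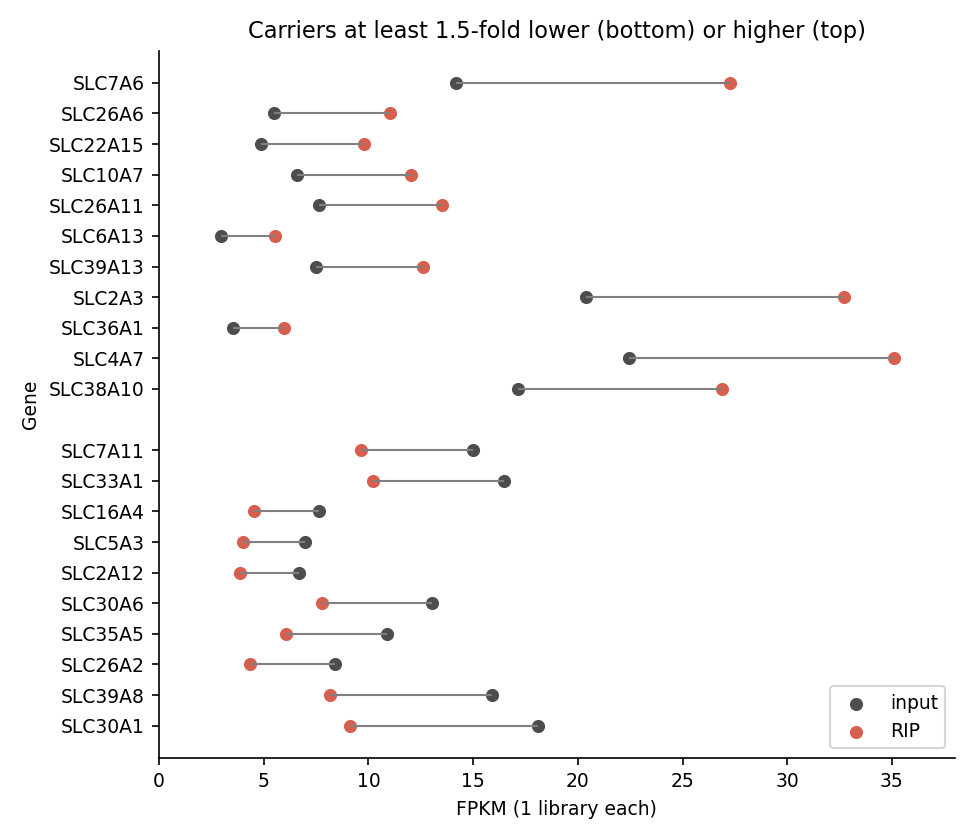
FPKM (horizontal axis) in the input (grey) and the RIP (orange) for 11 carriers at least 1.5-fold higher in the RIP (upper block) and the 10 at least 1.5-fold lower (lower block), 1 library each. SLC7A6 goes from 14.2 in the input to 27.3 in the RIP, and SLC30A1 from 18.1 to 9.11.

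The most abundant carriers stayed near the input. SLC38A2, a sodium-coupled importer of small neutral amino acids, was the highest of both libraries at 136.5 FPKM in the RIP against 120.3 in the input (0.18). SLC3A2, the heavy chain that carries several SLC7 light chains to the plasma membrane, stood at 128 and 110 FPKM (0.21), and its counting interval of 1.11 to 1.21 around a linear ratio of 1.16 lies below 1.5-fold. SLC16A1, the lactate and pyruvate carrier, stood at 69.6 and 73.1 FPKM (-0.07). SLC20A1, a phosphate importer, stood at 76.1 and 64.9 (0.23), SLC1A5, a glutamine carrier, at 53.4 and 49.9 (0.10), and SLC6A8, the creatine carrier, at 54.6 and 44.1 (0.30).

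Carriers of amino acids and peptides were spread on both sides of 0. Of 23 past the floor, 12 had ratios above 0 and 11 below, with a median of 0.03, and 10 (43.5%) exceeded the median gene. At least 1.5-fold higher were 4 of the 23, against 19.9% of all genes, and 1 was lower, against 10.2%. In SLC7 the median over 5 members was -0.06, between SLC7A11 and SLC7A6. SLC7A5, the light chain for large neutral amino acids that pairs with SLC3A2, stood at 8.02 FPKM in the RIP against 7.86 in the input (0.03). Its copy SLC7A5P1 stood at 17.2 and 9.36 FPKM (0.81), and fragments could be split between such copies, so the value of SLC7A5 is uncertain.

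In SLC38, sodium-coupled neutral amino acid carriers, the median over 6 members was 0.06, and it turned to -0.07 when centred on the median gene. Ratios ran from SLC38A9, the lysosomal arginine sensor of mTORC1 signalling, at 26.1 FPKM in the RIP against 33.7 in the input (-0.36), to SLC38A10 at 26.9 and 17.1 (0.62). In SLC6, the sodium and chloride-coupled carriers, the median over 4 members was 0.29, and SLC6A15, a carrier of branched-chain amino acids and proline, was lowest at 12.7 and 14.1 FPKM (-0.14). SLC1A3, a glutamate carrier known from astrocytes, stood at 18.3 and 12.6 FPKM (0.51).

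Carriers of metal ions had lower ratios than most other roles. Of 21 past the floor, 5 had ratios above 0 and 16 below, with a median of -0.30, and 3 of 21 (14.3%) exceeded the median gene. In SLC30, whose members mostly move zinc out of the cytosol, 0 of 5 members had a ratio above 0, with a median of -0.39. SLC30A9 stood at 27.8 FPKM in the RIP against 36.7 in the input (-0.39), SLC30A7 at 14.7 and 18.8 (-0.33), and SLC30A5 was the highest of them at 24.9 and 25.5 (-0.03).

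SLC39, whose members bring zinc into the cytosol, was the largest subfamily. Of its 11 members, 3 had ratios above 0 and 8 below, with a median of -0.27. SLC39A13, which supplies zinc to collagen-forming pathways, was the highest at 12.6 FPKM in the RIP against 7.51 in the input (0.68). SLC39A7, which releases zinc from the endoplasmic reticulum, stood at 47.9 and 42.2 (0.18), and SLC39A6 at 32.9 and 31.6 (0.05). SLC39A14, an importer of zinc, iron and manganese, stood at 10.5 and 15.0 (-0.47), and SLC31A1, the copper importer, at 8.18 and 12.2 (-0.53). SLC11A2, the proton-coupled iron importer, lay on the other side at 28.9 and 25.4 (0.18).

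Carriers of inorganic ions had the highest median of the roles. Of 18 past the floor, 13 had ratios above 0 and 5 below, with a median of 0.23, and 11 (61.1%) exceeded the median gene. SLC26, anion exchangers, had a median of 0.57 over 4 members, 3 of them between 0.40 and 0.89, with SLC26A2 apart at -0.81. Among the cation chloride cotransporters of SLC12, SLC12A4 stood at 30.3 FPKM in the RIP against 23.5 in the input (0.35), and SLC12A7 at 14.7 and 12.7 (0.19). SLC12A2, which loads cells with chloride, stood at 23.9 and 25.6 (-0.10), and SLC12A9 at 5.86 and 6.35 (-0.10).

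Among the SLC9 exchangers of organelles, SLC9A8 of the Golgi stood at 8.40 FPKM in the RIP against 6.5 in the input (0.33), and SLC9A7 at 12.2 and 12.6 (-0.05). SLC4A7, a sodium bicarbonate cotransporter, stood at 35.1 and 22.5 FPKM (0.62), and SLC4A2, a chloride bicarbonate exchanger, at 38.5 and 32.6 (0.23).

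Sugar carriers and the SLC5 family had a median near 0, but not all of them stayed close to the input. The 2 SLC5 members past the floor had ratios of -0.66 and 0.45. Of 13 in the role past the floor, 10 had ratios above 0 and 3 below, with a median of 0.06, but only 5 (38.5%) exceeded the median gene. At least 1.5-fold higher was 1 of the 13, against 19.9% of all genes, and 2 were lower, against 10.2%. In SLC2, the facilitative glucose carriers, 6 of 7 members lay above 0 and 4 exceeded the median gene. The SLC2 median of 0.14 turned to -0.02 when the libraries were rescaled to the sum over coding genes. A floor of 20 FPKM left SLC2A3 alone. SLC2A1, the basal glucose carrier of most cells, stood at 16.3 FPKM in the RIP against 14.7 in the input (0.14). SLC2A3, the high-affinity glucose carrier of neurons, stood at 32.7 and 20.4 (0.66), and SLC2A12 at 3.85 and 6.69 (-0.66).

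Carriers of organic ions, monocarboxylates, vitamins and lipids lay on both sides of 0. The role held 23 carriers past the floor, with a median of -0.02, 10 of them above 0 and 13 below. In SLC16, the monocarboxylate carriers, 1 of 5 members had a ratio above 0, with a median of -0.43, from SLC16A4 at 4.53 FPKM in the RIP against 7.63 in the input (-0.64) to SLC16A14 at 13.1 and 10.1 (0.34). With no floor the SLC16 median was -0.07, and a floor of 20 FPKM left SLC16A1 alone at that value. SLC16A10, a carrier of aromatic amino acids and thyroid hormone, stood at 8.77 and 12.1 (-0.43). In SLC27, the fatty acid transport and acyl-CoA ligase family, the median over 4 members was 0.31, from SLC27A5 at -0.02 to SLC27A4 at 10.1 and 6.77 (0.51). The 2 SLC19 members past the floor, a folate and a thiamine carrier, lay below 0. SLC19A1 stood at 4.95 and 6.01 FPKM (-0.24) and SLC19A2 at 5.32 and 6.95 (-0.33).

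Carriers of nucleosides, nucleotide sugars and other intracellular cargo had the lowest median. Of 8 past the floor, 1 had a ratio above 0 and 7 below, with a median of -0.40. The A-named SLC35 genes, which mostly bring nucleotide sugars into the Golgi for glycosylation, had a median of -0.28 over 5 members. SLC35A1, the CMP-sialic acid carrier, stood at 10.9 FPKM in the RIP against 16.6 in the input (-0.57), SLC35A5 at 6.07 and 10.9 (-0.75), and SLC35A4 at 17.8 and 15.9 (0.15). SLC17A5, the lysosomal sialic acid exporter, stood at 7.18 and 10.7 (-0.51), and SLC29A1, the main nucleoside carrier of the plasma membrane, at 27.7 and 31 (-0.16). The heme carrier SLC48A1, placed in no role, stood at 3.51 and 5.35 FPKM (-0.49).

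**Figure D3:**
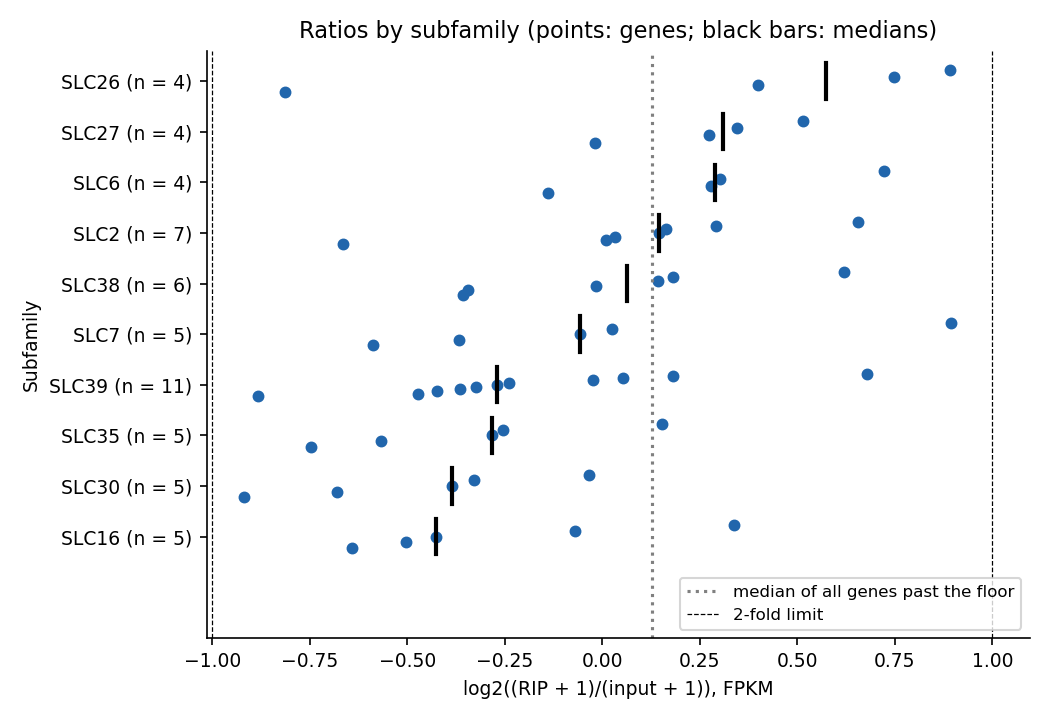
Log2 ratio of RIP to input (horizontal axis) for 56 carriers of 10 subfamilies, each with at least 4 carriers past the floor; points are genes and black bars medians. Of these, SLC26, SLC27 and SLC6 have the highest medians, at 0.57, 0.31 and 0.29, and SLC16 and SLC30 the lowest, at -0.43 and -0.39 (-0.07 for SLC16 with no floor), but the members overlap between most subfamilies.

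The 15 carriers under the floor of 5 FPKM had input values of 1.2 to 4.79 FPKM and RIP values of 2.12 to 4.30. Their median ratio was -0.11, with 4 above 0 and 11 below. SLC16A8, a lactate carrier of the retinal pigment epithelium, was the only one past 2-fold, at 4.25 FPKM in the RIP against 1.2 in the input (1.27). It rested on about 181 and 31 fragments, and its linear ratio of 3.60 had a counting interval of 2.45 to 5.46.

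The ratio of the carriers went with the exon number of their mRNA. Over 107 carriers, with 1 representative GENCODE transcript each, the rank correlation (Spearman's rho) of ratio and exon number was 0.45, and over 10383 other coding genes it was 0.57. These are descriptions across genes that share both libraries, and genes are not replicates. The 21 carriers with up to 6 exons had a median ratio of -0.42, and 3 of them lay above 0. The 28 with 15 or more exons had a median of 0.17, and 18 lay above 0. The 30 with 7 to 10 exons and the 28 with 11 to 14 lay between, at 0.00 and 0.02. Above 0 lay 14.3% of the carriers with up to 6 exons and 64.3% of those with 15 or more. Of other coding genes, 32.3% with up to 6 exons and 89.1% with 15 or more lay above 0.

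Within each class of exon number the median of the carriers lay below that of the other coding genes. Other coding genes had medians of -0.19 with up to 6 exons, 0.06 with 7 to 10, 0.27 with 11 to 14 and 0.49 with 15 or more. The classes are wide and exon number was not matched within them. In the last class the carriers had a median of 17 exons and the other coding genes 21, and with other coding genes held to the carriers' range of 15 to 27 exons their median was 0.46, at a median of 19 exons. The carriers had a median of 11 exons and a coding length of 1644 bases, and the other coding genes 10 exons and 1422 bases.

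**Figure D4:**
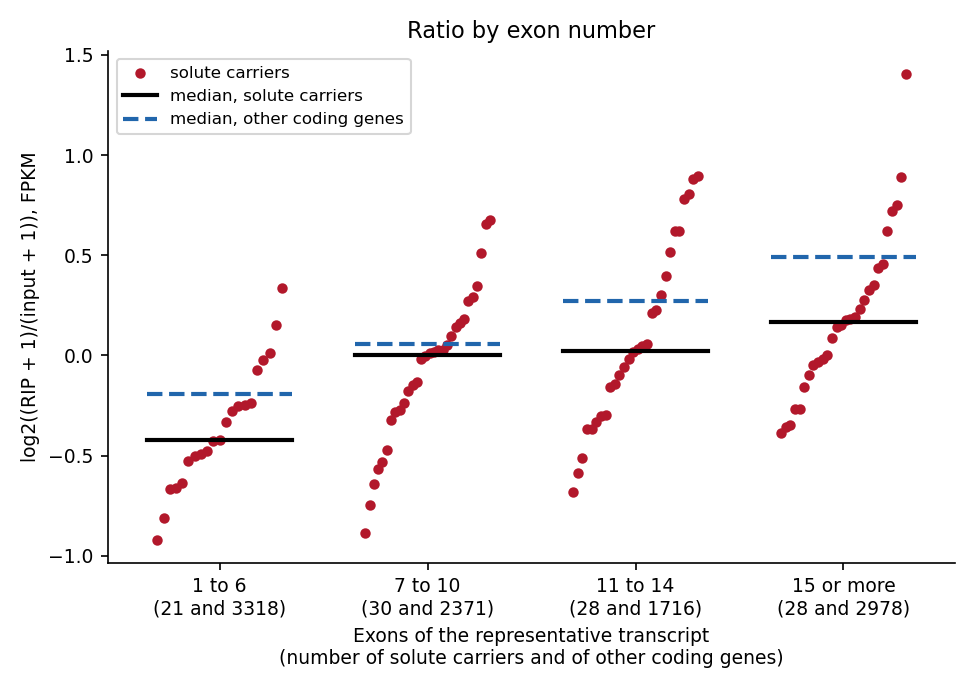
Log2 ratio of RIP to input (vertical axis) of 107 carriers in 4 classes of exon number (horizontal axis), with the median of the carriers as a solid black line and that of other coding genes as a dashed blue line. Both medians rise from the first to the last class, from -0.42 to 0.17 for carriers and from -0.19 to 0.49 for the other coding genes.

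Base composition and other annotated features went with the ratio as well. Coding length had a rank correlation of 0.3 over the carriers and 0.51 over the other coding genes. The number of retained-intron transcripts had 0.33 and 0.36, and that of all annotated transcripts 0.27 and 0.33. The rank correlation with GC content of the transcript was 0.33 over the carriers and 0.24 over the other coding genes, and with GC content at the third codon position 0.34 and 0.15. The 36 carriers with the lowest GC content, 35% to 43.5%, had a median ratio of -0.28, and 10 of them lay above 0. The 35 in the middle, 43.6% to 56%, had a median of 0.02, and 20 lay above 0. The 36 with the highest, 56.1% to 66.7%, were close to these, with a median of 0.04 and 21 above 0. The rank correlation with exon number was 0.44, 0.52 and 0.55 within these sets, from the lowest to the highest GC content. Length of the 3′ untranslated part had a rank correlation of -0.22 and of the whole transcript -0.11, where the other coding genes had -0.07 and 0.25.

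The subfamilies differ in exon number and GC content. SLC16 members have 5 to 9 exons in the set past the floor, and SLC35 members 2 to 8. SLC12 members have 14 to 27 exons and a median GC content of 60.9%. In SLC30 the gene with the lowest ratio, SLC30A1, has 2 exons, and SLC30A5 with the highest has 16. All 5 SLC30 ratios lay below 0 at a median of 14 exons and a median GC content of 38%. In SLC26 the gene with the lowest ratio, SLC26A2, has 3 exons, and SLC26A6 with the highest has 21. The part of exon number, base composition and the other features in these ratios was not tested.

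Other transport genes had medians from -0.15 to 0.60. The lowest was that of 21 solute carriers named with another letter or as SLCO, a list added after the data had been seen. The 35 mitochondrial SLC25A carriers past the floor had a median of -0.02, with a median of 9 exons, and ran from SLC25A46 (-0.87) to SLC25A27 (1.19). ABC transporters, which use ATP to pump lipids and drugs and include a few soluble translation factors, had a median of 0.60 over 22 genes. Of these, 20 lay above 0 and 18 (81.8%) exceeded the median gene. At least 1.5-fold higher were 12 of the 22, against 19.9% of all genes, and 1 was at least 2-fold higher, against 4.9%. ABCF2, one of the soluble members, stood at 61.3 FPKM in the RIP against 28.6 in the input (1.07), ABCB6 at 15.97 and 7.89 (0.93), and the drug pump ABCB1 at 34.8 and 21.1 (0.69), while the mitochondrial ABCB10 stood at 23.0 and 25.2 (-0.13).

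The ABC genes have a median of 26.5 exons. Among genes with 15 or more exons the median ratio was 0.60 for 21 ABC genes and 0.17 for 28 solute carriers, but these ABC genes have a median of 28 exons and the carriers 17. P-type ATPases and their subunits, which set up the gradients that carriers use, had a median of 0.26 over 10 genes. ATP2A1, a calcium pump known from muscle, was the highest at 9.40 FPKM in the RIP against 5.12 in the input (0.77), and ATP1B3, a beta subunit of the sodium pump, the lowest at 31.2 and 46.0 (-0.55). Chaperones and regulators of carriers had a median of 0.15 over 14 genes. Of these, 0 were past 1.5-fold, where 19.9% of all genes were higher and 10.2% lower. BSG, which escorts SLC16A1 to the surface, stood at 159 and 175 FPKM (-0.14), EMB at 24.4 and 32.5 (-0.40), and WNK1, a kinase that controls SLC12 carriers, at 94.5 and 72.9 (0.37). None of these differences between lists was tested, since each group has 1 library.

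**Figure D5:**
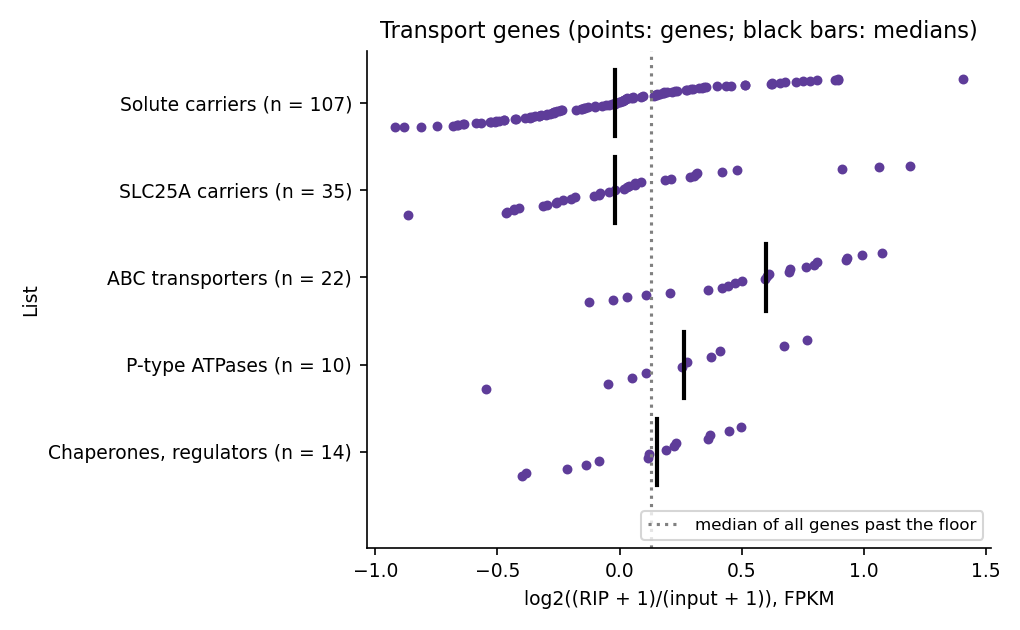
Log2 ratio of RIP to input (horizontal axis) for genes past the floor in 5 lists of transport genes; points are genes, black bars medians, and the dotted line is the median of all genes at 0.13. The solute carriers and the SLC25A carriers have medians of -0.02, left of the dotted line, and the ABC transporters 0.60.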

How the data were processed

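RNA from 1 RIP and 1 input library was compared. Per the submitters' processing notes the tools were cutadapt 1.18, Trimmomatic 0.3, STAR 2.6.1 and RSEM 1.2.31 on hg38. The sources used here give neither the settings, nor the gene annotation, nor how low genes were removed. The deposited table names no unit. Its values were taken as FPKM made by the authors, from their decimals and sums, so each depends on the total of its own library.

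Depth was searched as the fragment number and mean fragment length (170 and 168 bases) that best gave whole fragments for genes with 1 transcript. Within 0.15 of a whole number lay 52.9% of 454 such genes for the RIP and 57.8% of 554 for the input. Random values would also fall in this window in part, so the fit is partial and depths are rough estimates. All fragment numbers and counting intervals rest on these depths. Low genes were filtered at 5 FPKM. Exon number, lengths, GC content and coordinates came from GENCODE 29 (GRCh38, the assembly of hg38), matched by identifier for 12983 of 13075 genes and all 122 members, with 1 principal coding transcript per gene. With 1 library per group no test was possible, and counts past a fold limit and medians are given beside those of all genes. The script was tested on simulated data.

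Members and lists were chosen with earlier results of these data known, and the exon and GC classes after the values had been seen. Genes named were the members past the 2-fold limit, the highest and lowest of each subfamily with at least 4 members past the floor and of each role, the 5 highest levels per library and markers, except that a few genes under this rule are not reported here. Others, chosen after their values were seen, are the remaining members at least 1.5-fold apart and SLC2A1, SLC4A2, SLC11A2, SLC12A2, SLC12A4, SLC12A7, SLC16A10, SLC17A5, SLC19A1, SLC19A2, SLC29A1, SLC30A7, SLC30A9, SLC31A1, SLC35A1, SLC39A6, SLC39A7, SLC39A14, SLC7A5P1, ABCB1, ABCB6, SLC9A7, SLC9A8 and WNK1. Python 3.11.15, numpy 2.4.6, pandas 2.3.3, scipy 1.17.1 and matplotlib 3.10.9 were used.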

Additional observations from a re-analysis of the deposited data

How the results depend on the processing

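No paired analysis was possible because RIP and input have a single library each. Scaling by TMM or DESeq2 needs counts, so neither was tried on these FPKM values. The carriers' median lay below that of all genes by 0.12 to 0.16 log2 over the pseudocounts, floors and scalings run, and below that of coding genes by 0.17. Depth limits single ratios, since the fewest estimated fragments of a counted carrier were 91, and the spread between replicates is unknown. Against 1 carrier at least 2-fold higher and 0 lower, no floor gave 2 higher (with SLC16A8), the 1.5-fold limit 13 and 10, and the 4-fold limit 0 higher. Centring on the median gene, which moved ratios by -0.13, and rescaling to the sum over coding genes, which moved the median gene by -0.17, each gave 2 lower (SLC30A1 and SLC39A8). The carriers' median of -0.02 became 0.0747 with a floor of 20 FPKM, which kept 30 carriers, and -0.18 after rescaling. With that floor 11 carriers exceeded the median gene, and SLC7 had a median of 0.89 from SLC7A6 alone, SLC2 0.66 from SLC2A3 alone and SLC16 -0.0702 from SLC16A1 alone. With no floor SLC16 also had -0.0702. SLC9, SLC26, SLC27 and SLC35 had no carrier left with the floor of 20 FPKM. In the other settings subfamily medians moved by less than 0.25 log2, which still turned SLC38 to -0.07 (centred), -0.09 (rescaled) and -0.08 (floor of 20 FPKM), and SLC2 and SLC9 to -0.02 each (rescaled).

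Against 588 genes at least 2-fold higher and 300 lower, pseudocount 5 gave 300 and 180, a floor of 20 FPKM 352 and 157, the 1.5-fold limit 2386 and 1222, and the 4-fold limit 79 and 84. Centring gave 365 higher, rescaling 308 and 498, and coding genes alone 384 and 56. With pseudocount 5 SLC26A6 had 0.61. The cause of these shifts was not tested beyond the setting itself.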
